A study of Mus musculus with 219 samples.

Results

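The mouse embryo builds its first epithelium, the trophectoderm, around the blastocoel, and the mRNAs of 10 genes of that epithelium were followed here from the 2-cell embryo to the blastocyst. The members were chosen by name from the machinery that seals and fills the cavity, and rows with these symbols were read from both count tables (10 of 32285 genes). They are the adherens junction gene Cdh1, the tight junction genes Tjp1, Ocln, Cldn4, Cldn6 and Cldn7, the desmosome gene Dsp, the sodium pump gene Atp1b1, and the aquaporin genes Aqp3 and Aqp9. All 10 were counted in blastomeres, in twin blastocysts and in intact blastocysts.

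All embryos came from B6C3F1 oocytes injected with CD1 sperm by ICSI, the direct injection of a sperm head. The sperm was placed opposite the meiotic spindle (contralateral), next to it (ipsilateral, called isolateral in the sample labels) or between these positions (equatorial). Sister blastomeres were collected as separate libraries at Theiler stage 2. At Theiler stage 5, the twin blastocysts had grown from the separated blastomeres of a 2-cell embryo, while an intact blastocyst had grown from an embryo that was not divided. Here the counts of both sisters or both twins were added, so that the embryo was the replicate. The 2-cell embryos numbered 21 contralateral, 13 equatorial and 21 ipsilateral, the twin pairs 6, 6 and 7, and the intact blastocysts 11, 12 and 8. Total counts per library had a median of 1340425 in blastomeres (360474 to 2100561), 1093478 in single twins (713410 to 2161062) and 705837 in intact blastocysts (234099 to 1254428). Of the intact libraries, 5 (3 contralateral and 2 equatorial) lay under 400000 counts, and some of the member results are also given without them.

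A blastocoel needs a seal, a pump and a path for water. Cadherins hold neighbouring cells together at adherens junctions and desmosomes anchor their keratin filaments. Tight junctions, built of claudins and occludin on scaffolds of zonula occludens proteins, close the gap between trophectoderm cells. The Na+/K+-ATPase of the basolateral membrane moves sodium toward the cavity, and water follows through aquaporins.

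The labelled stages were checked against marker genes. The 9 oocyte and maternal markers summed to 2718 to 4197 CPM (counts scaled to the same library total) in 2-cell embryos, to 0 to 22.8 in twin blastocysts and to 0 to 46.99 in intact blastocysts. The 11 trophectoderm markers summed to 118.5 to 429.6 CPM in 2-cell embryos and to 4361 to 9099 in blastocysts. The 8 cumulus markers stayed at or below 56.4 CPM at the 2-cell stage and 4.57 in blastocysts. Each library of blastocysts was made from a whole embryo, so a lower share of trophectoderm cells and less mRNA per trophectoderm cell cannot be told apart in any value below.

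Cldn7, Cldn4, Aqp3 and Dsp were nearly silent in 2-cell embryos and rose by the largest factors. The 250 bases that precede their annotated starts are shown because these genes carry the largest changes among the 10 members. They were taken from the RefSeq promoter table of GRCm38.p6, in which 9 of the 10 members have an entry (12 windows in all, none for Cdh1). Each is written 5′ to 3′ on the strand of its gene. Capitals mark a match, on either strand, to the core motif of the TEAD factors (GGAATG) or of AP-2 factors (GCCNNNGGC).
Cldn7, chr11:69964529-69964778, plus strand: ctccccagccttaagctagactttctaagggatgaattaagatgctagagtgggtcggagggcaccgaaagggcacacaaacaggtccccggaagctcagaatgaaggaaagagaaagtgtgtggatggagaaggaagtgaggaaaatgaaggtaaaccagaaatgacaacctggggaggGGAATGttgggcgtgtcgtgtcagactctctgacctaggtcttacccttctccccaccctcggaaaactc
Cldn4, chr5:134946935-134947184, minus strand: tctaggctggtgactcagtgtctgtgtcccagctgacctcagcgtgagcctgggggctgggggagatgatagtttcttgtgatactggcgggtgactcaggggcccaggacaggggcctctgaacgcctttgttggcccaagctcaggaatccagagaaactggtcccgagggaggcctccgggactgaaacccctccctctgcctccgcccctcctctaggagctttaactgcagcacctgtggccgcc
Aqp3, chr4:41098184-41098433, minus strand: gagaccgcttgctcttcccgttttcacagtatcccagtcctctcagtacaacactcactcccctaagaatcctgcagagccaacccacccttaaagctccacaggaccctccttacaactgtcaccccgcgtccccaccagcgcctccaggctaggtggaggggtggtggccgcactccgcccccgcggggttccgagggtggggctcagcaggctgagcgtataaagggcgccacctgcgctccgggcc
Dsp, chr13:38151044-38151293, plus strand: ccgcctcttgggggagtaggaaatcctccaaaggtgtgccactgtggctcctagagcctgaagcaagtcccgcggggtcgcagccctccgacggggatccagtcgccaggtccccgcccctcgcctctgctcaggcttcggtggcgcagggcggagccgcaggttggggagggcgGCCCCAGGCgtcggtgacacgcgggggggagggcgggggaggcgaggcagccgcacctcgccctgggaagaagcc
The printed Cldn7 window holds the TEAD motif from 70 bases before the start, and the Dsp window holds the AP-2 motif from 75 bases before it. Neither the Cldn4 nor the Aqp3 window has a match, and nor has the window of another annotated Cldn7 start (chr11:69965171-69965420). The TEAD motif occurs in 12.6% of all 32851 windows of this length and in 1 of the 12 member windows. The AP-2 motif occurs in 13.7% of all windows and in 2 of the member windows, those of Dsp and Ocln. The grainyhead motif AACCGGTT, present in 0.116% of all windows, was in none of the member windows. The guanine and cytosine content of the printed windows was 51.2% for the printed Cldn7 window, 62% for Cldn4, 64% for Aqp3 and 72.4% for Dsp, against a median of 52.4% over all windows. A match is a description of letters and not a measured binding site.

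The first comparison asked how the members changed between the 2-cell embryo and the blastocyst. The rise was steep for Cldn7, Cldn4, Aqp3 and Dsp, intermediate for Cdh1, Atp1b1 and Ocln, and slight for Tjp1, while Aqp9 ended lower in twin blastocysts. Values below are CPM per embryo, given as the lowest, the median and the highest embryo over 55 2-cell embryos, 19 twin pairs and 31 intact blastocysts. Changes are log2 fold changes ± SE from edgeR's quasi-likelihood test with plate as a term and p-values adjusted by Benjamini and Hochberg's method over all genes tested. Plate 1 held 2-cell embryos alone, and 13 of the 2-cell embryos were on plate 2, to which all blastocysts were assigned. With the plate term, each change therefore set blastocysts against those 13 (3 contralateral, 2 equatorial and 8 ipsilateral). The 42 embryos of plate 1 shaped the plate term and the spread, while the printed CPM cover all 55. A change was called at an adjusted p under 0.05.

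Most genes changed at this transition, so a call by itself separates a member little from the rest. Of 12645 genes tested for intact blastocysts, 77.7% were called, 31.5% higher and 46.1% lower, with a median log2 fold change of -0.40. Of the 10 members, 8 were called and all 8 were higher. For twin blastocysts, 79.1% of 13825 genes were called, 34.7% higher and 44.3% lower, with a median of -0.25. Of the members, 9 were higher there and 1 was lower. Both comparisons used the same 55 2-cell embryos, and their changes rest on the same 13 of plate 2. The median over all genes moved with the scaling, from -0.40 to -0.32 with RLE factors and -0.10 with library totals alone for intact blastocysts, and from -0.25 to 0.07 and -0.10 for twin blastocysts.

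Cdh1 (ENSMUSG00000000303, chr8:106603351-106670246) encodes E-cadherin, the adhesion molecule of compaction. It lay at 2.29, 47.8 and 138 CPM in 2-cell embryos, at 347, 422 and 510.4 in twin and at 232, 372 and 1051 in intact blastocysts. Every blastocyst exceeded every 2-cell embryo, and each of the 110 blastomeres had at least 1 Cdh1 read. The log2 fold change was 2.84 ± 0.25 in intact (adjusted p = 8.7e-19) and 2.93 ± 0.24 in twin blastocysts (adjusted p = 6.2e-19).

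Tjp1 (ENSMUSG00000030516, chr7:65296165-65527781) encodes ZO-1, the cytoplasmic scaffold of the tight junction. It was already present in each of the 110 blastomeres. Its levels were 11.3, 75.1 and 126.7 CPM in 2-cell embryos, 63.8, 100.5 and 120.97 in twin and 12.02, 120.8 and 239.8 in intact blastocysts, so that all 3 ranges overlapped. The change of 0.64 ± 0.21 in intact blastocysts was called (adjusted p = 0.00508). The change of 0.46 ± 0.20 in twin blastocysts was called as well (adjusted p = 0.0291) but lost the call under 6 of the alternatives, with values of 0.28 to 0.43.

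Ocln (ENSMUSG00000021638, chr13:100496507-100552718) encodes occludin, a membrane protein of the tight junction strand. It had 0, 16.1 and 49.6 CPM in 2-cell embryos, with 4 of 55 embryos at 0. Twin blastocysts had 38.4, 60.3 and 106.3 CPM, a range that overlapped with the 2-cell embryos. Intact blastocysts had 59.01, 130.9 and 224 CPM, all above the 2-cell embryos. Ocln rose by 2.26 ± 0.43 in intact (adjusted p = 2.3e-06) and by 1.34 ± 0.48 in twin blastocysts (adjusted p = 0.00961).

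The claudins form the paracellular barrier itself, and the 3 measured here followed different courses. Cldn7 (ENSMUSG00000018569, chr11:69964779-69967885) had 0, 2.62 and 21.1 CPM in 2-cell embryos, with no read in 14 of them. It had 485, 547 and 610.2 CPM in twin and 329, 433 and 691 CPM in intact blastocysts. No blastocyst came near the 2-cell range, and the log2 fold change was 7.10 ± 0.60 in intact (adjusted p = 5.1e-19) and 7.56 ± 0.63 in twin blastocysts (adjusted p = 2.6e-18). Cldn4 (ENSMUSG00000047501, chr5:134945119-134946934), whose protein binds a clostridial enterotoxin, was without a read in 35 of 55 2-cell embryos. Its levels there were 0, 0 and 12.5 CPM, against 87.4, 144 and 190.5 in twin and 97.2, 174 and 420.5 in intact blastocysts. The ranges did not overlap, and the changes were 6.89 ± 0.73 (intact, adjusted p = 1.7e-14) and 6.60 ± 0.84 (twin, adjusted p = 5.6e-11). Cldn4 did not pass the filter on low counts in 2-cell embryos and entered these fits through the blastocysts. A rise was therefore the only direction open to it, and its p-values add little to the ranges.

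Cldn6 (ENSMUSG00000023906, chr17:23679249-23682446), a claudin of embryonic epithelia, was the claudin with a clear level before the blastocyst. It had 0, 22.4 and 113.99 CPM in 2-cell embryos, 36.6, 82.9 and 112 in twin and 0, 56.9 and 196 in intact blastocysts, with broad overlap. The change of 0.63 ± 0.45 in intact blastocysts was not called (adjusted p = 0.200). The change of 1.07 ± 0.47 in twin blastocysts was called (adjusted p = 0.0328), and was 0.89 (adjusted p = 0.0802) with the first-labelled twin of each pair alone and 0.99 (adjusted p = 0.0507) with the other.

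Dsp (ENSMUSG00000054889, chr13:38151294-38198577) encodes desmoplakin, which ties the desmosome to keratin filaments. It had 0, 2.34 and 21.5 CPM in 2-cell embryos, with 20 embryos at 0, and 147, 208 and 259.9 CPM in twin and 113, 186 and 313 in intact blastocysts. The ranges lay far apart. The change was 4.90 ± 0.66 in intact (adjusted p = 2.1e-10) and 5.12 ± 0.73 in twin blastocysts (adjusted p = 2.1e-09).

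Atp1b1 (ENSMUSG00000026576, chr1:164437109-164458355) encodes a beta subunit of the Na+/K+-ATPase, which brings the catalytic subunit to the membrane. It had 10.1, 48.9 and 109.8 CPM in 2-cell embryos, 121.9, 156 and 211 in twin and 56.7, 216 and 372 in intact blastocysts. Twin blastocysts lay above all 2-cell embryos, while the intact range reached into theirs. The 26 intact libraries with at least 400000 counts began at 130.3 CPM, above the 2-cell range. Atp1b1 rose by 2.02 ± 0.23 in intact (adjusted p = 3.8e-13) and by 1.71 ± 0.23 in twin blastocysts (adjusted p = 2.0e-10).

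The aquaporins moved in opposite directions. Aqp3 (ENSMUSG00000028435, chr4:41092722-41098183) encodes a channel for water and glycerol, and had 0, 2.05 and 20.7 CPM in 2-cell embryos. It had 96.0, 180.0 and 249 CPM in twin and 113, 238 and 446 CPM in intact blastocysts. Its blastocyst ranges lay above the 2-cell range, with changes of 5.69 ± 0.61 (intact, adjusted p = 1.9e-14) and 5.31 ± 0.68 (twin, adjusted p = 6.2e-11). Aqp9 (ENSMUSG00000032204, chr9:71110659-71168682) encodes a channel that also passes small solutes, and was without a read in 2 of 110 blastomeres. It had 11.9, 80.2 and 189.6 CPM in 2-cell embryos, 18.4, 38.3 and 78.3 in twin and 6.30, 48.1 and 288 in intact blastocysts. The ranges overlapped. The change was -1.12 ± 0.26 in twin blastocysts (adjusted p = 8.0e-05) and -0.48 ± 0.30 in intact blastocysts, which was not called (adjusted p = 0.134). Without the plate term, Aqp9 (-0.66, adjusted p = 0.00335) and Cldn6 (0.75, adjusted p = 0.0159) were both called in intact blastocysts.

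**Figure D1:**
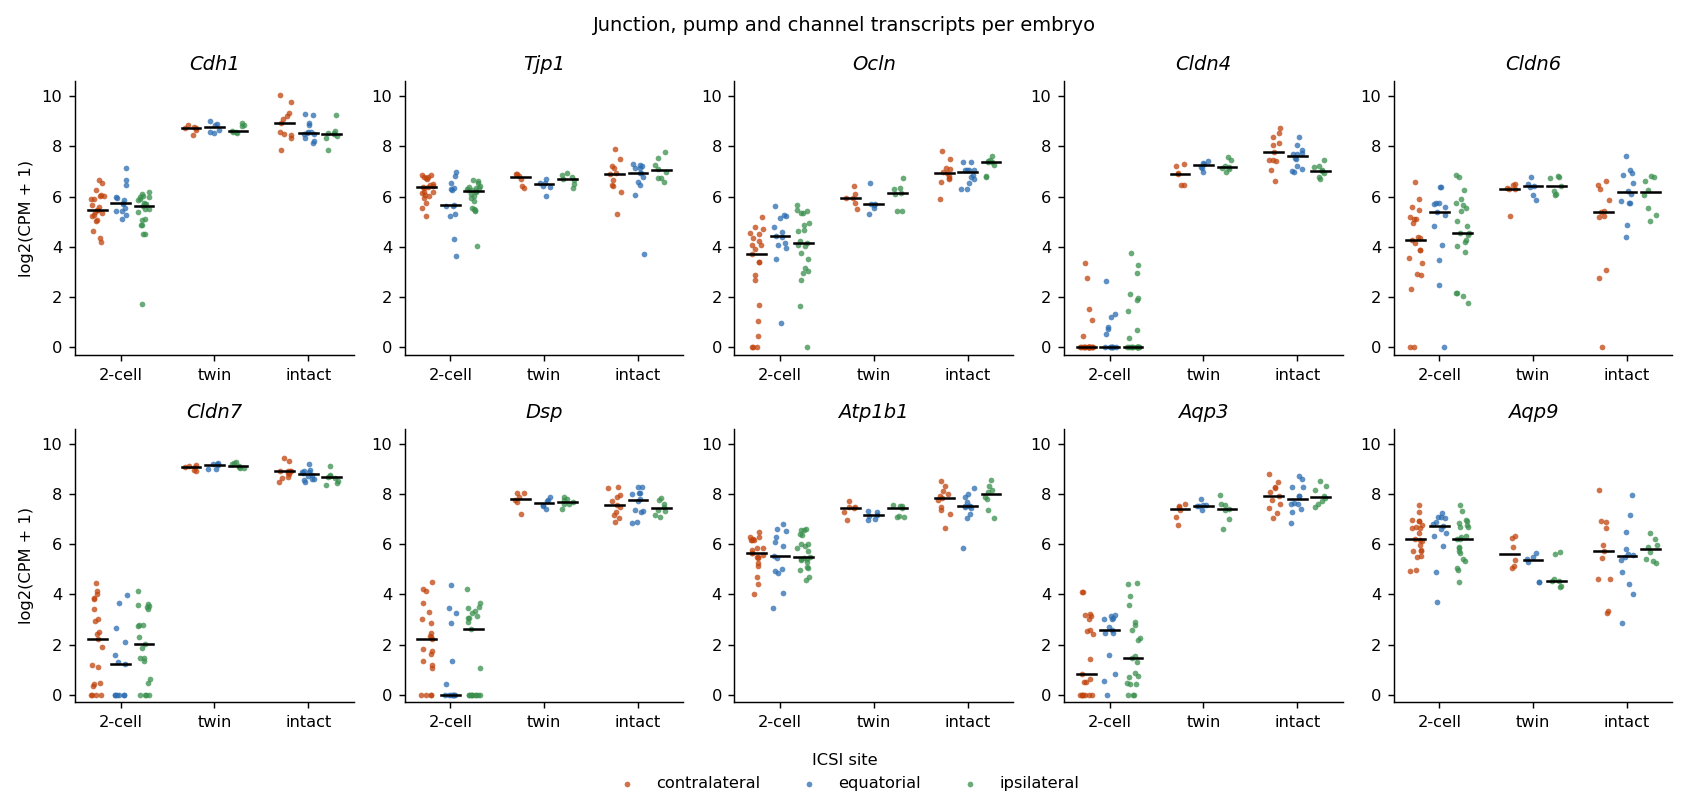
CPM of the 10 members per embryo (points, log axis) in 2-cell embryos, twin pairs with counts added and intact blastocysts. Cldn7 lies at 0 to 21.1 CPM in 2-cell embryos and at 329 or above in every blastocyst, while Aqp9 overlaps between all groups.

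Members whose blastocysts all lay above all 2-cell embryos numbered 6 of 10 in each case. In intact blastocysts they were Cdh1, Ocln, Cldn4, Cldn7, Dsp and Aqp3, where 5.40% of the genes tested lay above without overlap and 15.3% were apart in either direction. In twin blastocysts they were Cdh1, Cldn4, Cldn7, Dsp, Atp1b1 and Aqp3, where 14.4% lay above and 26.8% were apart. Blastomeres with at least 1 read numbered 22 of 110 for Cldn4, 43 for Dsp, 53 for Cldn7, 63 for Aqp3, 89 for Ocln and 96 for Cldn6. Whether a blastomere without a read lacked the mRNA or was sequenced too shallowly was not tested.

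Levels of different genes were compared per exonic length, as TPM, in which counts are divided by exonic length and then scaled to the same total. In 2-cell embryos the order ran from Aqp9 (68.8 ± 34.5 TPM, SD, n = 55) over Cldn6 (62.1 ± 53.1) and Atp1b1 (57.2 ± 26.4) down to Cldn4 (2.25 ± 4.86) and Dsp (1.62 ± 1.90). No neighbours in that order differed beyond their SD. In twin blastocysts Cldn7 led with 807 ± 67.1 TPM (SD, n = 19), followed by Aqp3 (269 ± 59.8), Cdh1 (263 ± 31.4) and Cldn4 (223 ± 44.1), and Aqp9 came last (26.7 ± 12.2). The steps below Cldn7, below Cldn4 and below Cldn6 exceeded the SDs, and the others did not. In intact blastocysts Cldn7 led again with 661 ± 129.5 TPM (SD, n = 31), ahead of Aqp3 (392 ± 135), and only this first step exceeded the SDs.

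Within the 2 families with several members, the leading gene differed between the stages. Of the TPM of the 3 claudins, Cldn6 held 79.5% ± 25.0 in 2-cell embryos (SD, n = 55), 11.7% ± 2.54 in twin (n = 19) and 10.3% ± 5.93 in intact blastocysts (n = 31). Cldn7 held 16.9% ± 22.6, 69.3% ± 3.12 and 61.5% ± 8.33 in the same order. The share of Cldn4 was 3.57% ± 8.10, 19.01% ± 2.84 and 28.1% ± 9.07. Every blastocyst thus had Cldn7 at or above 44.05% of the 3 claudins. Of the TPM of the aquaporin pair, Aqp9 held 88.7% ± 12.8 in 2-cell embryos, 9.33% ± 5.07 in twin and 9.51% ± 5.99 in intact blastocysts, and Aqp3 held the rest. The lowest share of Aqp9 in a 2-cell embryo was 54.1%, above its highest share of 30.9% in a blastocyst. These shares were not tested.

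**Figure D2:**
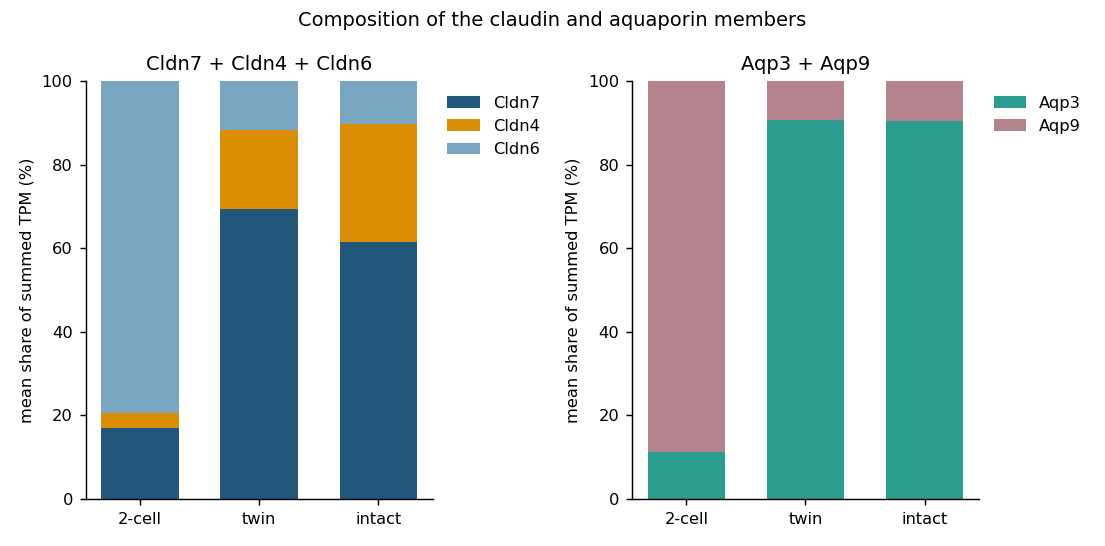
Share of each gene in the summed TPM of the 3 claudins and of the aquaporin pair, in percent, by group. The mean of Cldn6 goes from 79.5% in 2-cell embryos to 11.7% and 10.3% in twin and intact blastocysts, and Aqp9 from 88.7% to 9.33% and 9.51%.

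A wider list of 64 further genes of junctions, ion transport and water channels was counted in full. Against 2-cell embryos, 41 of them were tested in intact blastocysts, of which 23 were higher and 12 lower, with a median log2 fold change of 1.17 against -0.40 over all genes. Of all genes tested there, 31.5% were higher and 46.1% lower. In twin blastocysts 47 were tested, with 23 higher, 14 lower and a median of 0.78 against -0.25. The desmosome genes moved most uniformly, with 7 higher and 1 lower of 8 tested in both kinds of blastocyst. The pump and ion transport genes split evenly, with 4 higher and 4 lower of 10 tested in intact blastocysts. In twin blastocysts they had 5 higher and 5 lower of 12. In intact blastocysts the adherens junction genes had 4 higher and 3 lower of 9, and the tight junction genes 8 and 3 of 13. Of the 2 further aquaporins tested there, 1 was higher and 1 lower. Dsg2, the desmosomal cadherin desmoglein, had a mean of 0.281 CPM in 2-cell embryos, 278 in twin and 265 in intact blastocysts, a log2 fold change of 10.23 ± 0.68 in intact blastocysts (adjusted p = 1.4e-25). Aqp8, a further aquaporin, was nearly unread at the 2-cell stage and reached 30.6 CPM in twin and 32.8 CPM in intact blastocysts (8.77 ± 0.79 in intact, adjusted p = 3.0e-17). Dsg2 and Aqp8 passed the filter on low counts through the blastocysts, so a rise was the only direction open to them.

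The genes of the wider list that fell included a tight junction scaffold, Mpdz, from 144 CPM in 2-cell embryos to 2.41 CPM in intact blastocysts (-6.11 ± 0.29, adjusted p = 3.9e-36). Cdh2, the gene for N-cadherin, fell from 57.1 to 0.303 CPM (-7.49 ± 0.39, adjusted p = 9.4e-33), and Nectin3, an adhesion molecule, from 141 to 21.2 CPM (-3.07 ± 0.22, adjusted p = 5.9e-24). In twin blastocysts Cftr, the gene for a chloride channel, fell from 19.7 to 0.0506 CPM (-8.03 ± 0.64, adjusted p = 1.0e-19). Cdh2 and Cftr were nearly unread in those blastocysts and passed the filter through 2-cell embryos, so a fall was the only direction open to them.

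The second comparison asked whether twin blastocysts, grown from a separated blastomere, differed from intact blastocysts in these mRNAs. Occludin mRNA was 2.27-fold lower in twins, and Atp1b1, Aqp3 and Aqp9 were also lower, whereas Cldn7 was slightly higher. The fit held 19 twin pairs and 31 intact blastocysts, all taken as plate 2, with ICSI site as a term. Of 10689 genes tested, 40.5% were called, 20.2% higher and 20.3% lower in twins, with a median log2 fold change of 0.01. Of the 10 members, 7 were called, 6 lower and 1 higher in twins, with a median of -0.45. DESeq2 called 7 as well.

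Ocln showed the largest fold difference. Intact blastocysts had 59.01, 130.9 and 224 CPM (lowest, median, highest) and twin pairs 38.4, 60.3 and 106.3. Of the 31 intact blastocysts, 30 lay above the twin median and 23 above every twin pair. The log2 fold change of twins against intact was -1.18 ± 0.13, which was the largest of the members (adjusted p = 1.0e-10). After contralateral ICSI the medians were 60.8 CPM in twin (44.5 to 84.6) and 121.4 in intact blastocysts (59.01 to 224). After equatorial ICSI they were 50.6 (38.4 to 91.5) and 123.9 (78.6 to 168). At both of these sites the ranges overlapped. After ipsilateral ICSI the ranges were 41.6 to 106.3 CPM in 7 twin pairs and 109.8 to 194 in 8 intact blastocysts. The share of all genes with ranges apart within a single site was not counted.

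The pump and channel members Atp1b1, Aqp3 and Aqp9 were lower in twins by smaller factors. Aqp3 had a twin median of 180.0 CPM (96.0 to 249) and an intact median of 238 (113 to 446), with 12 intact blastocysts above all twins, and its change was -0.62 ± 0.13 (adjusted p = 9.3e-05). Atp1b1 had medians of 156 (121.9 to 211) and 216 (56.7 to 372), with 16 intact blastocysts above all twins and 2 below, and its change was -0.55 ± 0.12 (adjusted p = 0.000202). The lowest Atp1b1 value in the 26 intact libraries with at least 400000 counts was 130.3 CPM, within the twin range. In both genes the ranges overlapped. Aqp9 had medians of 38.3 (18.4 to 78.3) and 48.1 (6.30 to 288), and its change was -0.87 ± 0.28 (adjusted p = 0.0108). Its twin and intact medians were close after contralateral (49.3 and 52.6) and equatorial ICSI (40.02 and 44.99). They were further apart after ipsilateral ICSI (22.4 and 54.3). Of the intact blastocysts, 8 exceeded all twins in Aqp9 while 4 lay below them, and the rank-sum test on TPM did not call it (adjusted p = 0.125).

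Among the other junction genes, Cldn4 had medians of 144 CPM in twin and 174 in intact blastocysts (87.4 to 190.5 and 97.2 to 420.5), and its change was -0.48 ± 0.15 (adjusted p = 0.00795). Its twin and intact medians were 119.9 and 216.8 after contralateral and 151.5 and 194 after equatorial ICSI. After ipsilateral ICSI the order was the other way, with 144.4 in twin and 129.7 in intact blastocysts. Tjp1 had medians of 100.5 and 120.8 (63.8 to 120.97 and 12.02 to 239.8), with a change of -0.42 ± 0.15 (adjusted p = 0.0172). The Tjp1 call was lost with library totals alone (-0.36, adjusted p = 0.0541) and with the first-labelled twin alone (-0.38, adjusted p = 0.0592). Cldn7 went the other way, with medians of 547 in twin and 433 in intact blastocysts. Of the intact blastocysts, 25 of 31 lay below every twin pair and 2 above, and the change was 0.23 ± 0.08 (adjusted p = 0.0124). The size of the Cldn7 difference was 1.18-fold.

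Cdh1, Cldn6 and Dsp were not called. Their changes were -0.13 ± 0.13 (adjusted p = 0.453), 0.26 ± 0.22 (adjusted p = 0.376) and 0.00 ± 0.12 (adjusted p = 0.993). For Cdh1 the intact range enclosed the twin range, with 8 blastocysts above and 8 below all twin pairs. Over all sites, no member had twin and intact ranges that did not overlap, a pattern found in 0.393% of all genes.

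**Figure D3:**
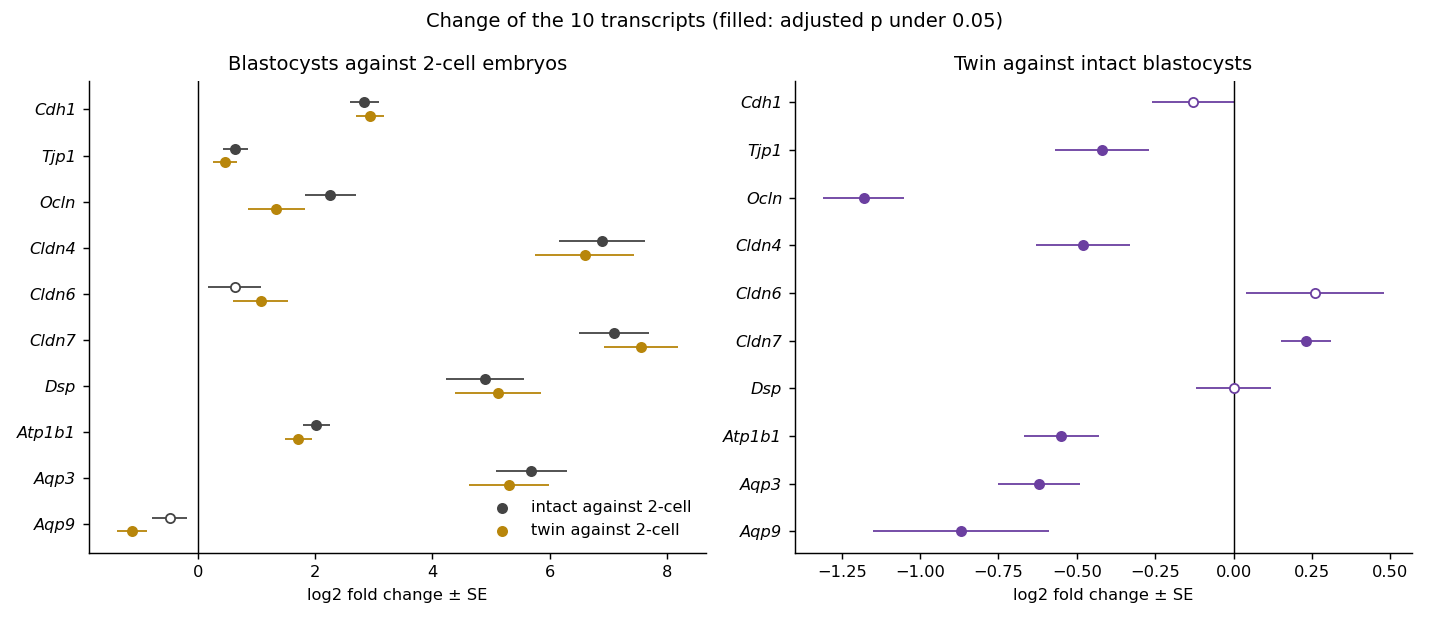
Log2 fold change ± SE of each member for twin against intact blastocysts and for both kinds of blastocyst against 2-cell embryos. Filled points passed an adjusted p of 0.05; Ocln lies lowest in twins against intact at -1.18 and Cldn7 highest against 2-cell embryos at 7.56 in twins.

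The spread between intact blastocysts was wider than that between twin pairs for most members. A twin value adds 2 libraries and was deeper, with 1676976 to 3095134 counts against 234099 to 1254428 in intact blastocysts. The part of this difference in depth was not tested. The coefficient of variation of Cdh1 was 40.5% in intact blastocysts and 10.9% in added twin pairs (15.2% and 12.4% over single twins of either label). For Aqp9 it was 94.4% and 46.3% (61.5% and 44.8% over single twins), and for Cldn7 18.3% and 7.04% (9.38% and 10.0%). In the 26 intact libraries with at least 400000 counts it was 26.1% for Cdh1, 77.5% for Aqp9, 19.2% for Cldn7 and 33.4% for Cldn4, which had 42.4% over all 31. Single twins of either label had 28.3% and 16.3% for Cldn4. For Aqp3 they had 28.3% and 22.7%, against 30.4% in the 26 intact libraries. Tjp1 had 27.9% and 17.1% against 32.4%, and Atp1b1 24.4% and 13.2% against 30.3%. For these members the gap to first-labelled twins was narrow. Ocln was the exception among the members, with 28.2% in intact and 30.4% in twin blastocysts. Cdh1, Cldn4 and Dsp had higher medians in the shallow libraries, although the ranges overlapped, and the part of depth in their spread was not tested. The 5 intact libraries under 400000 counts had a Cdh1 median of 624 CPM (597 to 1051), against 365 (232 to 636) in the other 26. Their Cldn4 median was 331 (204 to 420.5) against 159.7 (97.2 to 333), and their Dsp median 255 (117.3 to 313) against 182 (113 to 305). Without these 5 libraries, 7 members were still called between twin and intact blastocysts, with a Cdh1 value of 0.06 and a Cldn4 value of -0.32. The calls also stayed in each of 50 fits that left out a single embryo, with Ocln, Aqp3, Atp1b1, Cldn4, Tjp1, Aqp9 and Cldn7 called in every fit.

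Cell type markers differed between twin and intact blastocysts as well. Of 8 epiblast and inner cell mass markers, 6 were higher and 0 lower in twins, with a summed level of 420.1 to 804 CPM (median 546) in twin pairs and 28.05 to 557 (median 208) in intact blastocysts. Of 7 primitive endoderm markers, 3 were higher and 1 lower, with sums of 1144 to 1605 (median 1272) and 443 to 1266 (median 736). Of 11 trophectoderm markers, 2 were higher and 7 lower in twins, with sums of 4361 to 5445 (median 4939.5) and 4600.4 to 9099 (median 5720.0). No trophectoderm marker was at 0 in any blastocyst. Cdx2 averaged 192 CPM in twin and 72.8 CPM in intact blastocysts, and Tead4 207.8 and 123.7. Most of that list went the other way, as did Eomes (338.8 in twin and 662.5 in intact), Gata3 (504.3 and 752.9) and Krt7 (140.1 and 287.9). The part of these markers in the member differences was not tested.

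In the wider list, 38 genes were tested between twin and intact blastocysts, of which 5 were higher and 9 lower in twins, with a median of -0.15. Over all genes the shares were 20.2% higher and 20.3% lower, so the list is near the background. Of the 8 further pump and ion transport genes tested, 1 was higher and 2 were lower, and neither of the 2 further aquaporins tested was called. The 9 adherens junction genes tested had 3 higher and 0 lower. Of the 12 tight junction genes tested, 4 were lower and 0 higher. Rab13, the gene for a small GTPase of tight junction assembly, had a mean of 21.4 CPM in twin and 113 in intact blastocysts (-2.48 ± 0.23, adjusted p = 2.0e-13). The 8 desmosome genes tested split into 2 higher and 3 lower. Perp, a desmosomal membrane protein, was higher in twins (224 against 78.7 CPM, 1.51 ± 0.25, adjusted p = 3.4e-06), as was Jup, the gene for plakoglobin (0.64 ± 0.18, adjusted p = 0.00252). Pkp2, the gene for a plakophilin, was lower (103 against 161 CPM, -0.73 ± 0.11, adjusted p = 2.8e-07), as was Ppl, the gene for periplakin (-1.34 ± 0.32, adjusted p = 0.000517).

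The third comparison asked whether the site of sperm deposition left a trace in the members. No member was called between any sites in 2-cell embryos, twin blastocysts or intact blastocysts. In twin blastocysts edgeR called 0 of 10995 genes (0%) in each of 3 contrasts. Before adjustment, 728 genes (6.62%) had p under 0.05 for contralateral against equatorial, 426 (3.87%) for ipsilateral against equatorial and 754 (6.86%) for contralateral against ipsilateral ICSI, of which the members held 1, 0 and 2. DESeq2 called 6, 1 and 1 genes in the same order. In intact blastocysts edgeR called 0 of 9165 genes (0%) in each contrast. There 629 (6.86%), 338 (3.69%) and 522 (5.70%) genes had p under 0.05 before adjustment, with 1, 1 and 3 members among them, and DESeq2 called 1, 0 and 0. In 2-cell embryos, with 13141 genes tested, 13.2% and 6.65% were called in the contrasts with equatorial ICSI and 0 between contralateral and ipsilateral, where p was under 0.05 before adjustment for 555 genes (4.22%) and DESeq2 also called 0. Cldn4 had too few reads to be tested in 2-cell embryos.

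Among twin blastocysts the largest site difference was that of Aqp9. It had 31.8, 49.3 and 78.3 CPM (lowest, median, highest) after contralateral, 21.4, 40.02 and 48.8 after equatorial and 18.4, 22.4 and 50 after ipsilateral ICSI. The ranges overlapped. Contralateral exceeded ipsilateral twins by 0.91 ± 0.29 with an unadjusted p of 0.00357 and an edgeR adjusted p of 0.640. In intact blastocysts the same contrast was 0.56 ± 0.52 (adjusted p = 0.958). Atp1b1 in contralateral against equatorial twins (0.30 ± 0.13, unadjusted p from edgeR 0.0287) and Cldn4 in contralateral against ipsilateral twins (-0.30 ± 0.14, unadjusted p from edgeR 0.0371) were the other members under 0.05 before adjustment.

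Among intact blastocysts it was Cldn4 that showed the largest site difference. It had 97.2, 217 and 420.5 CPM after contralateral, 124.1, 194 and 331 after equatorial and 104, 129.7 and 175 after ipsilateral ICSI. Contralateral embryos 77, 82 and 83 (281.9, 420.5 and 372.7 CPM), each under 400000 counts, lay above the ipsilateral range. Embryos 79, 84 and 85 (268.4, 216.8 and 333.2 CPM) did so with deeper libraries. The other contralateral embryos lay within or below that range, so the contralateral and ipsilateral groups overlapped. The difference of 0.96 ± 0.26 between them ranked 3rd of all genes by p (unadjusted p = 0.000507) and did not pass adjustment (edgeR, adjusted p = 0.822). Ipsilateral against equatorial blastocysts gave -0.63 ± 0.25 (unadjusted p = 0.0148, edgeR adjusted p = 1.000). The contralateral against ipsilateral difference was 0.62 without the libraries under 400000 counts, of which ipsilateral ICSI had none. In twin blastocysts the contralateral group was the lowest, with medians of 119.9 CPM after contralateral, 151 after equatorial and 144 after ipsilateral ICSI. The test of whether the twin against intact difference depended on the site gave an unadjusted p of 0.00174 for Cldn4, 8th of all genes, and an edgeR adjusted p of 1.000. That test called 0 genes (0%) in edgeR and 0 in DESeq2. Before adjustment 246 genes (2.30%) and 1 member had p under 0.05.

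Cdh1 in contralateral against ipsilateral intact blastocysts was 0.61 ± 0.25 (unadjusted p = 0.0169, edgeR adjusted p = 0.836) and was 0.21 without the libraries under 400000 counts. Cldn6 in contralateral against equatorial was -0.89 ± 0.41 (unadjusted p = 0.0337, edgeR adjusted p = 0.697) and was -0.33 without them. Cldn7 in contralateral against ipsilateral was 0.33 ± 0.16 (unadjusted p = 0.0385, edgeR adjusted p = 0.838). At this depth and number of embryos, none of these site differences could be told from the spread between embryos.

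In 2-cell embryos Cdh1 was the member with an unadjusted p under 0.05, with 33.2, 52.8 and 138 CPM after equatorial and 2.29, 47.8 and 70.8 after ipsilateral ICSI. The difference of ipsilateral against equatorial was -0.51 ± 0.25 (unadjusted p = 0.0481, edgeR adjusted p = 0.249). In that contrast 2576 of all genes tested (19.6%) had p under 0.05 before adjustment. For contralateral against equatorial ICSI it was 3421 genes (26.03%), with no member among them. Of the 9 members tested, the adjusted p ranged from 0.244 (Tjp1) to 0.981 (Atp1b1) for contralateral against equatorial and from 0.249 (Cdh1) to 0.980 (Aqp3) for ipsilateral against equatorial ICSI, and was 1.000 for each between contralateral and ipsilateral. Ocln had medians of 12.3, 20.9 and 16.7 CPM after contralateral, equatorial and ipsilateral ICSI, and its contralateral against equatorial difference of -0.93 ± 0.51 was not called (adjusted p = 0.246). Of all genes tested in 2-cell embryos, 13.2% were called for contralateral against equatorial ICSI. Of the wider list, 2 of 40 genes tested were called there, both lower after contralateral ICSI. They were Afdn, the gene for afadin (-0.28 ± 0.07, adjusted p = 0.00519), and Pkp4, a plakophilin relative (-0.50 ± 0.14, adjusted p = 0.00742). Pkp4 was also lower after ipsilateral ICSI (-0.54 ± 0.14, adjusted p = 0.0109), in a contrast that shared the equatorial embryos. It was the 1 gene called of 40 tested in that contrast, where 6.65% of all genes were called.

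**Figure D4:**
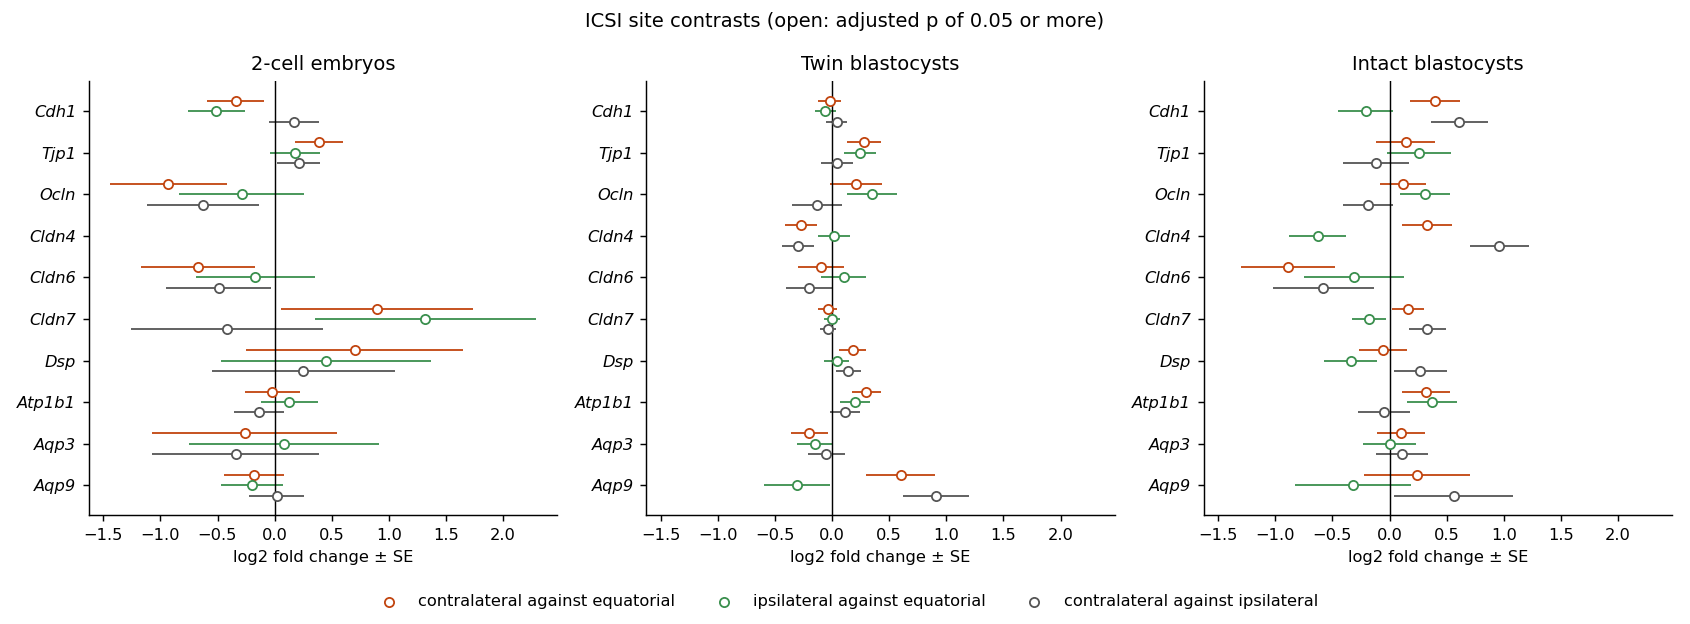
Log2 fold change ± SE of each member between ICSI sites in 2-cell embryos, twin blastocysts and intact blastocysts; every point is open because no adjusted p was under 0.05. Cldn4, not tested in 2-cell embryos, lies at 0.96 for contralateral against ipsilateral intact blastocysts and at -0.30 in twins.

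The fourth comparison asked how closely the members of a twin pair matched. For each gene, the size of the log2 difference in CPM between co-twins was set beside that between twins of different embryos of the same ICSI site (19 pairs and 204 combinations that reuse the same 38 libraries). Over all genes the medians were 0.472 in pairs and 0.517 between embryos, and 61.3% of genes had the smaller median in pairs. The members with the closest co-twins were Cdh1 and Cldn7, at 0.138 each, and Cldn4, at 0.176. For Cldn7 the value between embryos was also 0.138, so that all twins resembled each other. For Cldn4 and Cdh1 it was 0.316 and 0.202.

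Aqp9 differed most between pairing and no pairing, with a median of 0.404 in pairs and 0.756 between embryos. Even so, 6 of the 19 pairs differed by more than 1 log2 unit, and the widest pair, after contralateral ICSI, had 16 and 64.7 CPM. Ocln was less alike within pairs (0.586) than between embryos (0.482), and its widest pair, after ipsilateral ICSI, had 17.3 and 64.1 CPM. Tjp1 had 0.326 and 0.323. For Cldn6 the medians were 0.435 and 0.497, and its widest pair, after equatorial ICSI, had 21.9 and 83.8 CPM. Dsp (0.217 and 0.277), Atp1b1 (0.202 and 0.241) and Aqp3 (0.265 and 0.326) were each somewhat closer in pairs, with no pair more than 1 log2 unit apart.

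**Figure D5:**
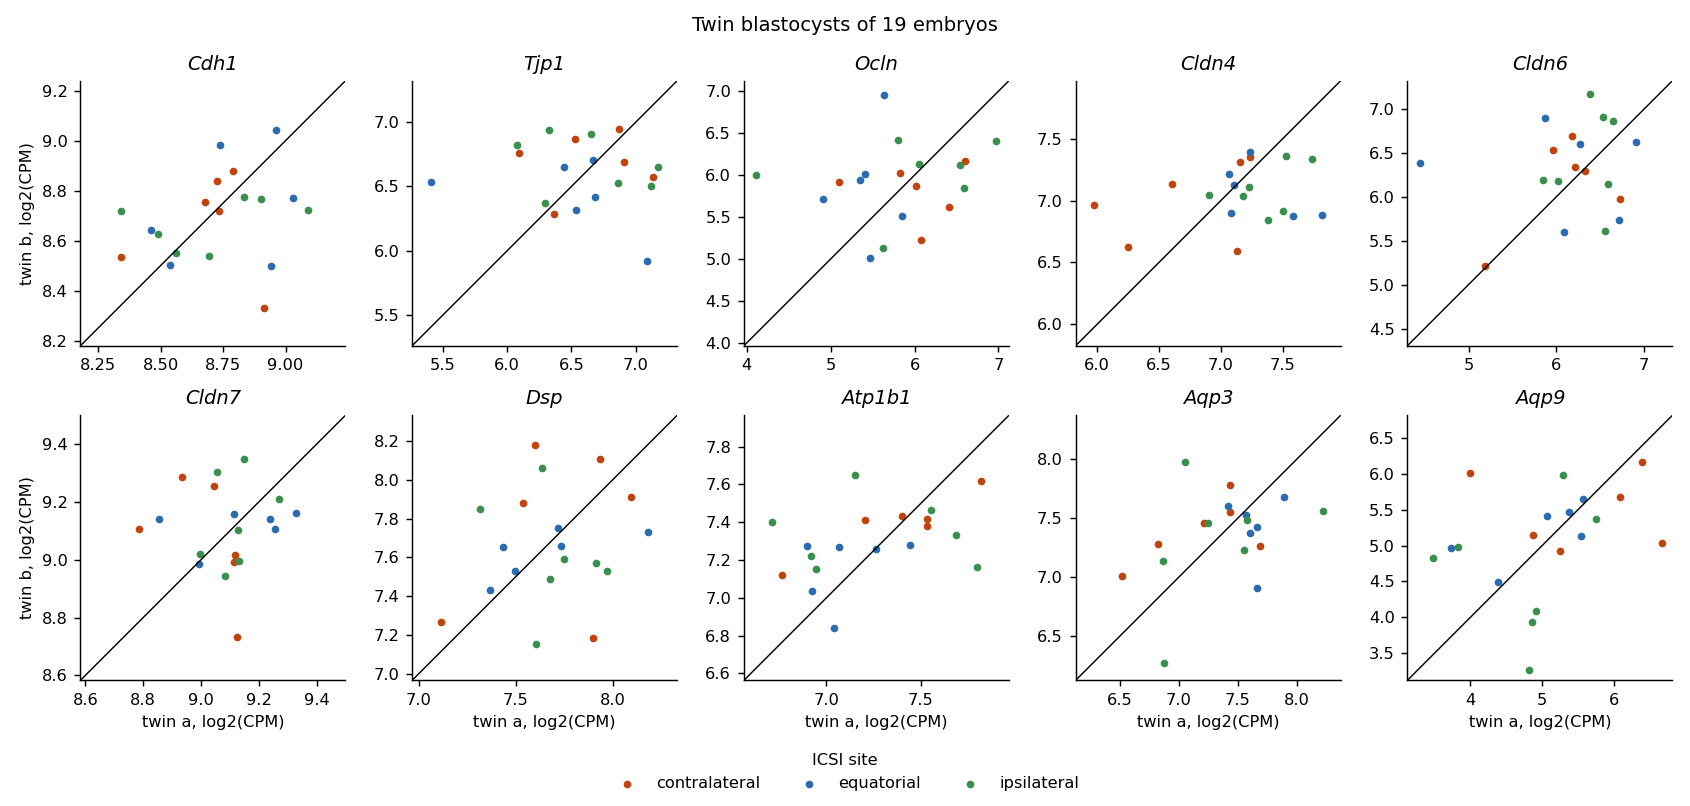
Log2 CPM of each member in the 2 twin blastocysts of 19 embryos, coloured by ICSI site, with the line of equality. Cdh1 and Cldn7 stay within 0.584 and 0.391 log2 units in every pair, while single pairs of Ocln, Cldn6 and Aqp9 differ by 1.83, 1.89 and 1.95.

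An edgeR test of whether embryos of the same ICSI site differed by more than their twins did called 89 of 9773 genes (0.911%) and no member. Aqp3 came closest, with an unadjusted p of 0.0172 and an adjusted p of 0.306. With no filter on low counts its adjusted p was 0.0348. DESeq2 called 736 genes in all and no member.

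Between sister blastomeres of 2-cell embryos the median difference was 0.871 over all genes tested, against 1.01 between embryos. Of these genes, 72.1% had the smaller median in pairs. The values cannot be set beside those of twins. The genes were the 13141 kept on added 2-cell counts, against 9773 kept on single twins. Each library held a single cell, with a median of 58.5 Cdh1 reads against 469.5 in a twin. Sisters always shared a plate, whereas blastomeres of different embryos were matched by ICSI site alone, and some of these combinations crossed plates. The part of plate in these differences was not tested. Aqp9 was the most alike of the members, with a median of 0.488 between sisters and 0.904 between embryos (55 pairs). Ocln (1.03 and 1.71) and Cldn6 (1.62 and 1.98) were also closer in sisters. Cdh1 had 0.906 and 0.792, Tjp1 0.753 and 0.662, and Atp1b1 0.900 and 0.828, so that for these 3 the median between sisters was the larger. Cldn7, Dsp, Cldn4 and Aqp3 had a median of 0 or 1 read per blastomere, too few for a pair difference to be read.

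Other genes followed each member across the 9 groups of stage, kind and ICSI site. Likeness was the root mean square difference of centred group means of log2(CPM + 1), over 12581 genes. The nearest gene to Cldn4 was St14, the gene for matriptase, a serine protease of epithelial membranes (0.173). Nearest to Cldn7 was Wnt7b (0.160), to Dsp the annexin gene Anxa2 (0.153) and to Aqp3 the gene S100a10 (0.157). Cdh1 lay nearest to Atp5o (0.122), Tjp1 to Zfp330 (0.0949), Ocln to Psat1 (0.149), Atp1b1 to Ndufa1 (0.109), Aqp9 to Rab21 (0.153) and Cldn6 to Gm26885 (0.179). Among the members themselves, Cldn4 and Cldn7 were each other's nearest (0.444), as were Dsp and Aqp3 (0.466). Many other genes lay nearer than these partners, 50 for Cldn4, 40 for Cldn7, 135 for Dsp and 136 for Aqp3. With 9 group means behind each profile, these distances are descriptions.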

How the data were processed

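RNA of single blastomeres and blastocysts was converted to full-length cDNA (SMART-Seq) and sequenced without molecular identifiers. The authors trimmed reads with Trimmomatic, aligned them with STAR 2.7.10b, without strand, to GRCm38 with GENCODE M23, and deposited raw counts per gene and library. A count is therefore not an independent molecule, and a gene's counts cannot be told from antisense reads. Labels alone gave the ICSI site, pair and plate. No label says that embryos came from separate females, so p-values measure the spread between these embryos.

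Blastomere pairs with at least 9500 genes in both sisters were kept (55 of 62 pairs, 15 of 125 blastomeres left out), with all 19 twin pairs and 31 intact blastocysts, and counts of sisters or twins were added. CPM used library totals. TPM used union exon lengths of GENCODE M21, and gene coordinates are those of M21 on GRCm38. Tests were edgeR 4.0.16 (TMM, filterByExpr, robust quasi-likelihood, threshold 0.05) in R 4.3.3. The SE of a log2 fold change is its size divided by the square root of F. Stage fits join both count tables, which were made with the same pipeline. Alternatives were DESeq2 1.42.0, rank-sum tests on added TPM (exact between sites, 100000 permutations between twin and intact), RLE factors, library totals, no filter, a single twin, thinned counts, no plate or site term, single plates, other sets of pairs and no intact library under 400000 counts. Leaving out each embryo was chosen after seeing the data. The scripts were tested on simulated counts.

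The members, the wider list, the markers and the motifs were chosen with earlier results of these data known. All members could be named in every comparison, and of the wider list at most 3 called genes per direction, ranked by adjusted p. A further named item is not reported here.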

Additional observations from a re-analysis of the deposited data

Results flagged for a closer look

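Of 40 sets of 4 to 10 embryos (10 members in 4 groups), 3 held an embryo whose gap to the others passed Dixon's 95% limit, where chance gives about 1 in 20. Cldn6 in contralateral twin blastocysts was 36.6 CPM in 1 embryo, against 77.3 to 89.1 in the other pairs. Ocln in equatorial twin blastocysts was 91.5 CPM in 1 embryo, against 38.4 to 51.9 in the others. The twins of that embryo had 49.7 and 124.02 CPM. Cdh1 in ipsilateral intact blastocysts was 615 CPM in 1 embryo, against 233 to 388 in the others. Total counts were 2592371, 1978183 and 573605 in these embryos, in the same order.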

How the results depend on the processing

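Under the alternatives, 156 of 157 counts of called members stayed within 1.5 times the reported count. The exception was the test between twin pairs, with 1 member called (Aqp3) when low counts were not filtered. Of the 157, 50 came from leaving out single embryos between twin and intact blastocysts. Many of the others were counts of 0 in both fits. Of 1543 member values, 63 had the other sign, none of them called in either fit. Between twin and intact blastocysts 6 or 7 members were called under every alternative, and 7 to 7 when each of the 50 embryos was left out. Calls lost were Tjp1 and Aqp9 there, and Tjp1 (adjusted p up to 0.102) and Cldn6 in twin blastocysts against 2-cell embryos. Without the plate term Cldn6 and Aqp9 were gained in intact blastocysts against 2-cell embryos. That fit set blastocysts against all 55 2-cell embryos and not against the 13 of plate 2. The cause was not tested.

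Counts over all genes moved more. Without a filter on low counts, they went from 89 to 927 between twin pairs (736 with DESeq2), from 9821 to 16044 and from 10932 to 16496 for intact and twin blastocysts against 2-cell embryos, and in 2-cell embryos from 1733 to 3930, from 874 to 2603 and from 0 to 1577 for contralateral against equatorial, ipsilateral against equatorial and contralateral against ipsilateral. Contralateral against equatorial gave 1104 with 48 pairs. Both contrasts with equatorial ICSI gave 0 on plate 2 alone, which held 2 equatorial, 3 contralateral and 8 ipsilateral embryos. So few embryos leave little power to call a gene. On plate 1 alone, with 11 equatorial embryos, contralateral against equatorial gave 2176 and ipsilateral against equatorial 1108. Of the calls between twin and intact blastocysts, 49.9% were higher in twins, and 66.6% with the rank-sum test.

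No paired analysis was possible because twin, intact and 2-cell embryos are different embryos, whose numbers tie a twin to its co-twin and pair nothing across groups. Reads were few for the low members, with no Cldn4 read in 88 of 110 blastomeres, and 2 of the 5 shallow intact libraries exceeded all 26 others in Cdh1.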
